A study of Mus musculus with 4 samples.

Results

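The 10 genes described here carry lactate across the plasma membrane, interconvert lactate and pyruvate, or switch off pyruvate entry into the mitochondrial pyruvate dehydrogenase complex. They were chosen by gene name among the non-control rows of the array, namely *Slc16a1*, *Slc16a3*, *Slc16a7*, *Bsg*, *Ldha*, *Ldhb*, *Pdk1*, *Pdk2*, *Pdk3* and *Pdk4*, and they make up 10 of the 29676 gene names on the array, with 19 probes between them. RNA came from astrocyte-enriched cultures (AECs) of the cerebral cortex of newborn ICR mice, in which pexidartinib, an inhibitor of the microglial survival receptor CSF1R, had been used to deplete microglia from mixed glial cultures, so all 4 samples share this treatment. The 2 untreated cultures were compared with 2 cultures kept for 15 h under oxygen-glucose deprivation (OGD), which is glucose-free medium at very low oxygen. The enrichment leaves oligodendrocytes and possibly NG2 glia in the cultures. According to the methods, wells came from separate cultures of different pups. Each sample was hybridized to 1 single-color array, and nothing ties an untreated culture to a particular OGD culture, so the *p*-values measure only the spread between these few cultures of 1 experiment.

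Astrocytes are known as glycolytic cells that release lactate. Lactate leaves a cell together with a proton through monocarboxylate transporters (MCTs): *Slc16a1* encodes the broadly expressed MCT1, *Slc16a7* the high-affinity MCT2 typical of neurons, and *Slc16a3* the low-affinity MCT4 typical of cells that export much lactate, while *Bsg* encodes basigin, the chaperone that brings MCT1 and MCT4 to the cell surface. *Ldha* and *Ldhb* encode the muscle-type and heart-type chains of lactate dehydrogenase, and the kinases encoded by the *Pdk* genes phosphorylate and inhibit pyruvate dehydrogenase. *Slc16a3*, *Ldha* and *Pdk1* are textbook targets of the hypoxia-inducible factor HIF, which binds ACGTG or GCGTG, and *Pdk4* is best known as a gene induced by fasting and by fatty acids.

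Signals in this text are log2 of the processed signal minus the 75th percentile of the same array, so 0 is the 75th percentile, and a change is the OGD mean minus the untreated mean. The 75th percentile itself was 2135 and 2164 in the untreated and 887 and 776 in the OGD arrays, and 73.7%, 73.0%, 66.2% and 64.5% of the spots were well above background, respectively. By contrast, the spiked-in control probes changed by a mean of −0.08 (range −0.75 to 0.28), so the scaling decides where 0 lies. The median change of the 28254 probes tested was 0.18 with the 75th percentile, 0.55 after normexp background correction, 0.01 after quantile normalization and −1.11 when the spike-ins set the scale, and each change below is to be read against these medians. In bulk RNA, fewer cells of a type and less RNA per cell cannot be told apart. All 8 astrocyte markers (*Gfap*, *Aqp4*, *Slc1a2*, *Slc1a3*, *Gja1*, *Aldh1l1*, *S100b* and *Aldoc*) were well above background on all 4 arrays. No non-control spot was saturated, and the 4 arrays lay on 1 slide scanned on 1 date.

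Of the 19 probes of the 10 genes, 18 passed the filter and were tested, 11 were higher after OGD, 4 were lower and 3 were not called at an adjusted *p* of 0.05 (limma). Among all tested probes 37.9% were called higher and 27.1% lower, so a call by itself says little in this comparison. The changes ran from −1.88 to 6.40 with a median of 0.92 (all probes, 0.18). With the brightest probe standing for each gene, 8 genes were higher and 2 (*Pdk2* and *Pdk4*) were lower, where 37.1% and 27.8% of all 21061 genes tested were called in the same directions. Only the 2 *Slc16a3* probes also exceeded the 10-fold limit, which 0.811% of all probes passed upward. Under spike-in scaling 5 probes of the 10 genes were called higher and 10 lower, where 1262 and 23153 of all 28254 probes were. Under quantile normalization these were 9 and 6, where 8683 and 8393 of all probes were called.

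**Figure D1:**
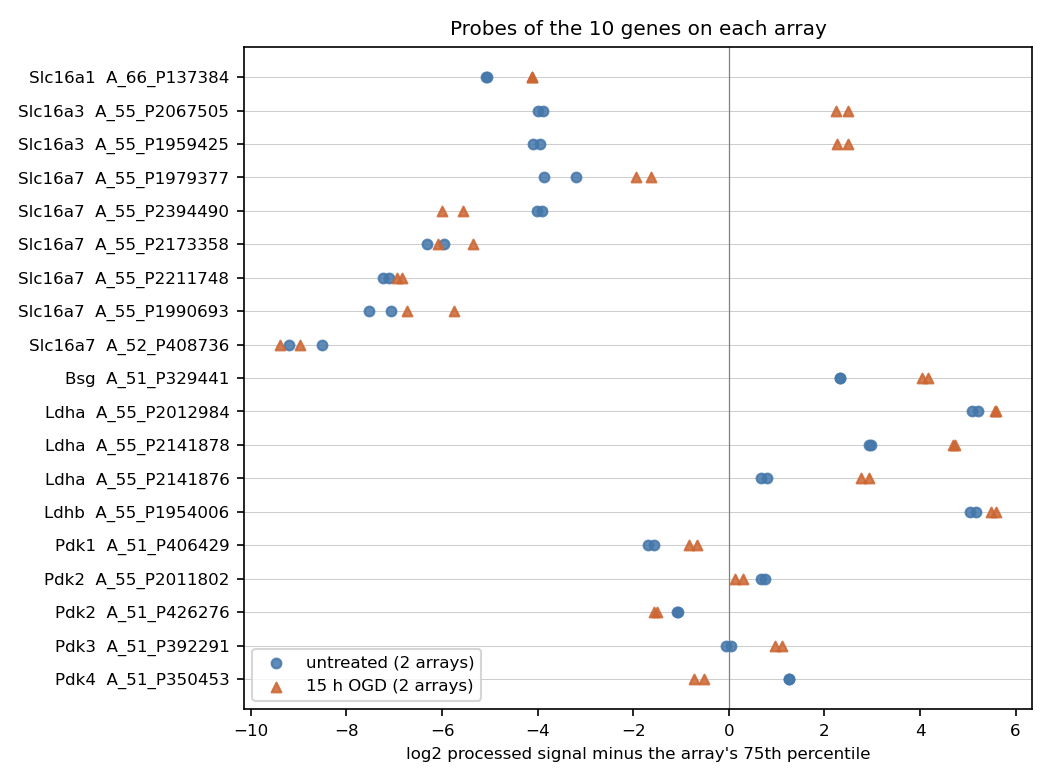
Log2 processed signal minus the 75th percentile of the array (x axis) for each of the 19 probes of the 10 genes (y axis), with 1 point per array, circles for the 2 untreated and triangles for the 2 OGD arrays. *Slc16a3* moves from about −3.94 to 2.36 and *Pdk4* from 1.26 to −0.63, on the 75th-percentile scale.

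The upstream sequence is shown for the strongest riser (*Slc16a3*), 2 further genes that were higher (*Ldha* and *Pdk1*) and the gene that fell most (*Pdk4*). RefSeq (GRCm38.p6) gave 11 promoter windows for 8 of the 10 genes and none for *Slc16a7* and *Bsg*. The 250 bases before the annotated start are printed 5′ to 3′ on the strand of the gene, and capitals mark ACGTG or GCGTG read on either strand (CACGT and CACGC on the other strand, with CACGTG holding ACGTG on both). The windows are chr11:120948817-120949066 (+) for *Slc16a3*, chr7:46845554-46845803 (+) for *Ldha*, chr2:71872974-71873223 (+) for *Pdk1* and chr6:5496279-5496528 (−) for *Pdk4*.
Slc16a3: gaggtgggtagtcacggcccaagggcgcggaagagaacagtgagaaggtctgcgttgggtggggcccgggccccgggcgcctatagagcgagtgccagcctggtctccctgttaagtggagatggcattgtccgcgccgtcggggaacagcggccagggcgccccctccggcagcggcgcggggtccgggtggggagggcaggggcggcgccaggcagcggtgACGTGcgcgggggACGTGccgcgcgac
Ldha: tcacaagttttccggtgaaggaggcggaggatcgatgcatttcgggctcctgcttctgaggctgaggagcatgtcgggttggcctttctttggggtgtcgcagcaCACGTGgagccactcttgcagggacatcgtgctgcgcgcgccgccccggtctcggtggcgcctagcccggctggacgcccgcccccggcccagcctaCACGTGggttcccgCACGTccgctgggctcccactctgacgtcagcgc
Pdk1: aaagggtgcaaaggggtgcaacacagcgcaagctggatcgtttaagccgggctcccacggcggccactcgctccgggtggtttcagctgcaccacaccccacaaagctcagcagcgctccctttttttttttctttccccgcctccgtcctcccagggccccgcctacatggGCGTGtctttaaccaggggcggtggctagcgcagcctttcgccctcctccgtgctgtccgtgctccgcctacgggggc
Pdk4: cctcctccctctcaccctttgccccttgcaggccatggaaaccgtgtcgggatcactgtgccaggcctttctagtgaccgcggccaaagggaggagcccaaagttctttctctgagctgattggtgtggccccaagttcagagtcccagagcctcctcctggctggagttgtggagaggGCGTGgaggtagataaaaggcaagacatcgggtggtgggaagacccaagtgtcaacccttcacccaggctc
The *Slc16a3* window held 2 ACGTG, 14 and 27 bases before the start. The *Ldha* window held 5 ACGTG matches, counted on both strands, between 34 and 145 bases before the start. The *Pdk1* and *Pdk4* windows each held 1 GCGTG, 78 and 71 bases before the start. The signals of these 2 genes moved in opposite directions with 75th-percentile scaling, and both were called lower with spike-in scaling (−0.41 and −3.17). Whether the motif bears on either was not tested. *Ldha* and *Pdk1* each have a second window that is not printed, with 1 GCGTG for *Ldha* and neither motif for *Pdk1*. Of the genes not printed, the *Slc16a1* window held 2 ACGTG and 2 GCGTG, that of *Pdk3* 1 and 3, and that of *Ldhb* 1 GCGTG. *Pdk2*, called lower, had a window with 2 ACGTG and another with neither motif. These counts, too, are over both strands. Either motif was present in 9 of the 11 windows and in at least 1 window of each of the 8 genes, against 38.6% of all 32851 windows (16.6% for ACGTG and 28.2% for GCGTG), and these background windows were not matched for base composition. A match is only letters in a window, and no binding was measured here.

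*Slc16a3*, encoding the lactate exporter MCT4, had by far the largest change of the 10 genes. Its brightest probe (A_55_P2067505, mm9 chr11:120820030-120820089, +) was at −4.0 and −3.89 in the untreated and at 2.49 and 2.23 in the OGD arrays. Both OGD values were far above both untreated values, and the gene went from well below to well above the 75th percentile of the arrays. The change was 6.30 (SE 0.12, limma adjusted *p* = 0.000729), or 79.0-fold, and it ranked 13 from the top of the 28254 probes tested. In processed signal, the untreated arrays read 133 and 146 and the OGD arrays 4971 and 3652. The other probe (A_55_P1959425) shares 53 of its 60 bases with the first, so it is not a separate site, and it changed by 6.40 (SE 0.12, adjusted *p* = 0.000729). Neither probe was below the background limit on any array. Over all alternatives the changes stayed between 5.02 and 6.52 and were called in each, the lowest being with spike-in scaling.

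*Slc16a1* and *Bsg* code for the more widely expressed carrier and for the chaperone. The *Slc16a1* probe (A_66_P137384, mm9 chr3:104462276-104462335, +) was dim, at −5.06 and −5.09 in the untreated and −4.12 and −4.12 in the OGD arrays. Its change was 0.96 (SE 0.07, adjusted *p* = 0.00178) on the 75th-percentile scale. With spike-in scaling it was called lower (−0.33, adjusted *p* = 0.0309), so its direction depends on the scale. In contrast, *Bsg* (A_51_P329441, mm9 chr10:79173390-79173449, +) was bright, at 2.32 and 2.32 in the untreated and 4.04 and 4.16 in the OGD arrays. The chaperone gene rose by 1.79 (SE 0.09, adjusted *p* = 0.000902), or 3.46-fold, and also by 0.50 with spike-in scaling. The processed signal of *Bsg* was itself higher in both OGD arrays (14631 and 13924) than in both untreated arrays (10630 and 10768), while that of *Slc16a1* was lower (51.2 and 44.6 against 63.8 and 63.8).

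*Slc16a7*, encoding MCT2, had 6 probes that disagreed with each other. The brightest (A_55_P1979377, mm9 chr10:124665183-124665242, −) was at −3.19 and −3.87 in the untreated and −1.95 and −1.64 in the OGD arrays. It rose by 1.74 (SE 0.28, adjusted *p* = 0.00891), with 0.45 (adjusted *p* = 0.126) under spike-in scaling and an adjusted *p* of 0.0772 in the methods' *t*-test with Benjamini–Hochberg adjustment. The untreated arrays of this probe differed from each other more than those of any other called probe of the 10 genes. The probe nearest the 3′ end (A_55_P2394490, mm9 chr10:124656357-124656416, −), 8826 bases downstream in the genome, was at −4.01 and −3.92 in the untreated and −5.56 and −6.00 in the OGD arrays. It fell by 1.82 (SE 0.18, adjusted *p* = 0.0028), but its change was 0.0025 (adjusted *p* = 0.982) after normexp background correction. Thus the directions of the 2 probes were opposite on the 75th-percentile scale. The groups did not overlap for either probe, but how many of all probes separate in this way was not counted. Of the other 4 probes, A_55_P2173358 changed by 0.42, A_55_P2211748 by 0.27 and A_55_P1990693 by 1.07, none past the adjusted *p* (0.287, 0.0659 and 0.0802), and A_52_P408736 was not well above background on any array and was not tested. Without OGD replicate 1, A_55_P1990693 (1.56, adjusted *p* = 0.0166) and A_55_P2173358 (0.78, adjusted *p* = 0.0455) were called higher. After normexp correction A_55_P2173358, A_55_P2211748 and A_55_P1990693 were all called higher (1.02, 1.09 and 1.18, adjusted *p* = 0.000158, 5.62e-05 and 0.000115), and with median scaling A_55_P1990693 was as well (1.08, adjusted *p* = 0.0318). By contrast, with spike-in scaling all 3 were below 0 (−0.87, −1.02 and −0.22). There A_55_P2173358 and A_55_P2211748 were called lower (adjusted *p* = 0.0262 and 0.001).

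The 3 *Ldha* probes, which follow each other along the gene, rose by different amounts. The probe nearest the 3′ end (A_55_P2012984, mm9 chr7:54110937-54110996, +) was at 5.21 and 5.08 in the untreated and 5.58 and 5.58 in the OGD arrays, a change of 0.44 (SE 0.09, adjusted *p* = 0.016). The middle probe (A_55_P2141878, mm9 chr7:54107294-54107353, +), 3643 bases upstream, went from 2.97 and 2.93 to 4.70 and 4.73, a change of 1.77 (SE 0.08, adjusted *p* = 0.000809). The first probe (A_55_P2141876, mm9 chr7:54103010-54103069, +), 7927 bases upstream, went from 0.67 and 0.80 to 2.93 and 2.77, a change of 2.12 (SE 0.10, adjusted *p* = 0.000928), or 4.35-fold. The OGD values were above the untreated ones for all 3 probes, a separation not counted over all probes. For the 2 upstream probes the change stayed positive and called in all alternatives (0.48 and 0.83 with spike-in scaling). The 3′ probe was instead called lower with spike-in scaling (−0.85, adjusted *p* = 0.00106) and after quantile normalization (−0.41, adjusted *p* = 0.0136). The 3′ probe also lost its call without untreated replicate 1 (0.50, adjusted *p* = 0.0746) or untreated replicate 2 (0.37, adjusted *p* = 0.131). Within arrays, the middle and the first probe rose by 1.33 and 1.68 more than the 3′ probe, and by 1.33 and 1.72 more after normexp correction. These probe pairs were set up after the values had been seen, and the exact permutation *p* of 0.333 (two-sided, n = 2 per group) is the smallest that this design allows.

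The upstream probes of *Ldha* and the brightest probe of *Slc16a7* are shown because they carry the larger rises of these genes. They are printed in lower case, 5′ to 3′ in the sense of the gene, and no part of them is set apart by capitals.
Ldha A_55_P2141876: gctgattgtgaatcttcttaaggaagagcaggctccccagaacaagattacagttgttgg
Ldha A_55_P2141878: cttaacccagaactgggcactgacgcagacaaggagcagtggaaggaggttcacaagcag
Slc16a7 A_55_P1979377: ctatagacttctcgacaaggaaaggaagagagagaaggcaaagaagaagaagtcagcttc
Each of the 3 is 60 bases long and can be read without a stop codon in at least 1 frame. So can the 3′ probe of *Ldha* and the probes of *Slc16a1* and *Bsg*, so this does not set the 3 apart. None of the 3 has a run of 20 bases in common with a probe of another gene name. In contrast, the 3′ probe of *Ldha* shares such a run with 1 probe that carries no gene symbol (A_55_P2063471, change 0.73), and so does the probe of *Ldhb* (A_55_P2086835, change 0.77). Whether these bright signals come from 1 gene alone was not tested.

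**Figure D2:**
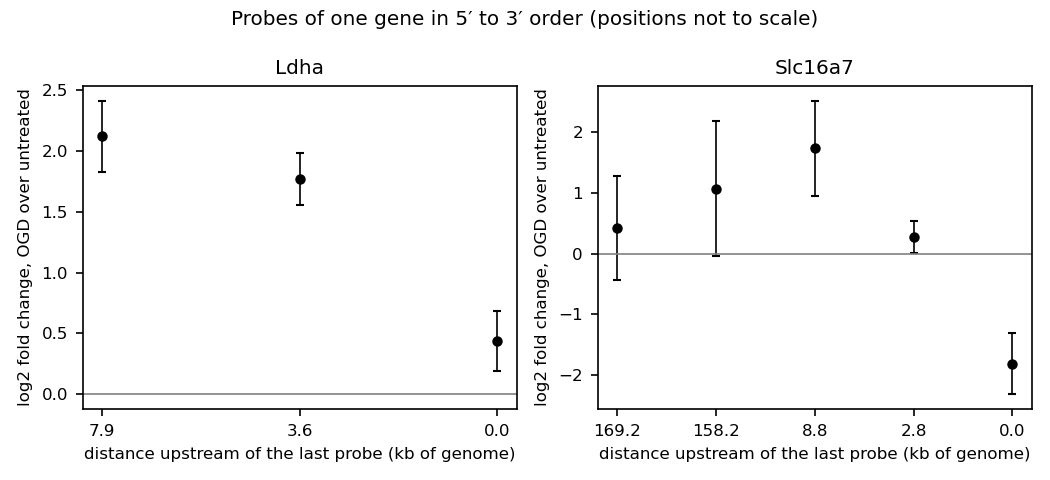
Change after OGD (log2, y axis, 75th-percentile scale, bars are 95% intervals of limma) of the tested probes of *Ldha* and *Slc16a7*, ordered from the 5′ to the 3′ side by their distance upstream of the last probe in kilobases of genome (x axis, not to scale). The last probe has the lowest change in both genes, 0.44 for *Ldha* and −1.82 for *Slc16a7*, and the latter is 0.0025 after normexp correction.

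*Ldhb* (A_55_P1954006, mm9 chr6:142438770-142438829, −) was at 5.18 and 5.05 in the untreated and 5.48 and 5.59 in the OGD arrays. Its change was small, 0.43 (SE 0.10, adjusted *p* = 0.0224). That call as higher turned to lower with spike-in scaling (−0.86, adjusted *p* = 0.00107) and after quantile normalization (−0.42, adjusted *p* = 0.0195). The call was also lost without untreated replicate 1 (0.49, adjusted *p* = 0.0862), untreated replicate 2 (0.36, adjusted *p* = 0.156) or OGD replicate 2 (0.37, adjusted *p* = 0.0559), with the replicate number as a block (adjusted *p* = 0.0557), and in the methods' *t*-test (adjusted *p* = 0.0711). The log2 ratio of *Ldha* to *Ldhb* within an array, taken over the brightest probes, was 0.03 and 0.03 in the untreated and 0.10 and −0.02 in the OGD arrays, a difference of 0.01 with an exact permutation *p* of 1. With the mean over the 3 *Ldha* probes in place of the 3′ probe, the same ratio rose by 1.01, so whether the balance of the 2 chains shifted depends on the probe read.

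The 4 pyruvate dehydrogenase kinase genes moved in different directions on the 75th-percentile scale, whereas with spike-in scaling all 4 were below 0. *Pdk1* (A_51_P406429, mm9 chr2:71739688-71739747, +), the isoform known as hypoxia-inducible, was at −1.57 and −1.68 in the untreated and −0.67 and −0.84 in the OGD arrays. Its change was 0.87 (SE 0.10, adjusted *p* = 0.00416), or 1.83-fold, and −0.41 with spike-in scaling, where it was called lower (adjusted *p* = 0.0251). *Pdk3* (A_51_P392291, mm9 chrX:91010227-91010286, −) was at −0.05 and 0.04 in the untreated and 0.96 and 1.12 in the OGD arrays. Its change was 1.05 (SE 0.10, adjusted *p* = 0.0026), or 2.06-fold, and −0.24 with spike-in scaling. For both, the OGD values exceeded the untreated values on the 75th-percentile scale, a separation not counted over all probes. Both changes were smaller than those of *Bsg* and of the upstream *Ldha* probes.

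*Pdk4* fell most. Its probe (A_51_P350453, mm9 chr6:5433441-5433500, −) was at 1.25 and 1.27 in the untreated and −0.51 and −0.74 in the OGD arrays. The fall was 1.88 on the log2 scale (change −1.88, SE 0.11, adjusted *p* = 0.00115), or 3.69-fold, and 94.9% of the probes tested had a larger value. It was called in all alternatives, with changes between −3.17 (spike-in scaling) and −1.77. In processed signal, *Pdk4* went from 5072 and 5212 to 621 and 466. *Pdk2*, the most widely expressed of the kinases, had 2 probes, 311 bases apart in the genome. The brighter (A_55_P2011802, mm9 chr11:94887669-94887728, −) went from 0.68 and 0.75 to 0.14 and 0.30, a change of −0.50 (SE 0.10, adjusted *p* = 0.0158). The other (A_51_P426276, mm9 chr11:94887980-94888039, −) went from −1.08 and −1.06 to −1.57 and −1.51, a change of −0.47 (SE 0.08, adjusted *p* = 0.00942). The 2 probes thus gave nearly the same change, and with spike-in scaling they were at −1.79 and −1.76 (adjusted *p* = 0.000158 and 0.000124). On the 75th-percentile scale neither kept its call without untreated replicate 1 (−0.53 and −0.48, adjusted *p* = 0.0871 and 0.0818) or untreated replicate 2 (−0.46 and −0.46, adjusted *p* = 0.119 and 0.0949). The brighter one had an adjusted *p* of 0.0628 in the methods' *t*-test, and the other was at −0.23 (adjusted *p* = 0.0633) after normexp correction.

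**Figure D3:**
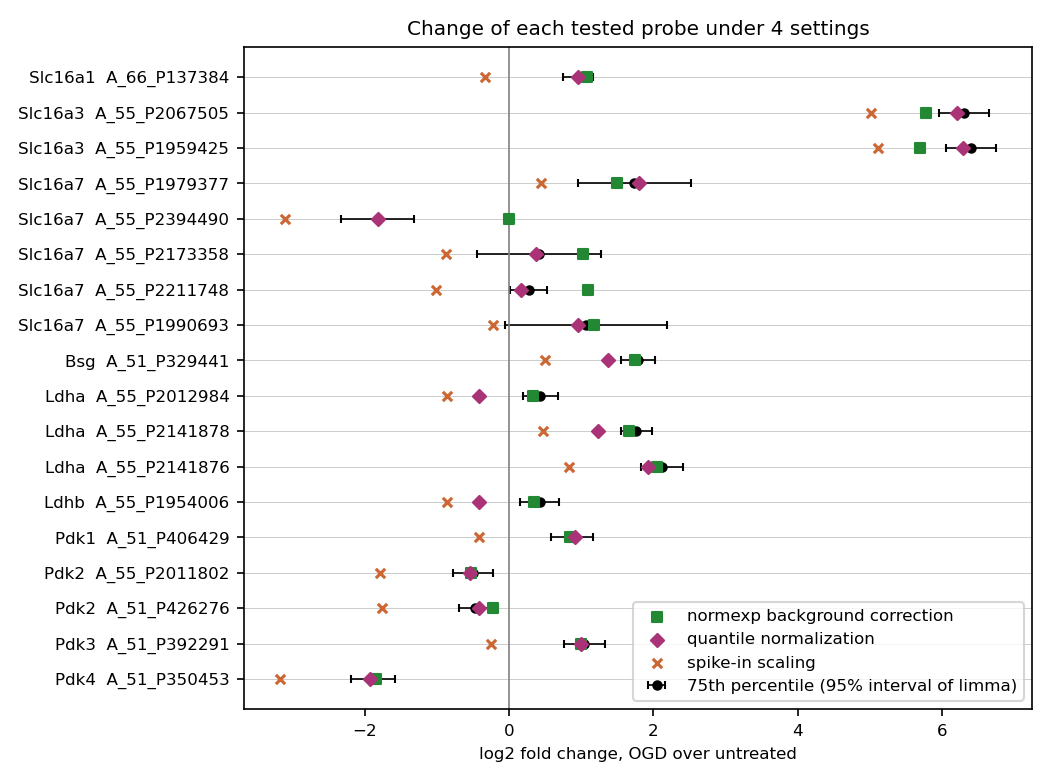
Change after OGD (log2, x axis) of the 18 tested probes (y axis) with 75th-percentile scaling (black circles with 95% intervals of limma), normexp background correction, quantile normalization and spike-in scaling. With spike-in scaling *Slc16a3* (5.02 and 5.11), *Bsg* (0.50) and the upstream *Ldha* probes (0.48 and 0.83) stay above 0, whereas *Slc16a1*, *Ldhb*, *Pdk1*, *Pdk3* and the 3′ probe of *Ldha* fall below 0.

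Ratios between members within an array do not depend on a scaling that multiplies each array by 1 constant, but quantile normalization, which is no such scaling, moved that of *Slc16a3* to *Bsg* from 4.52 to 4.82. With 2 arrays per group, the smallest exact permutation *p* (two-sided) is 0.333, so none of the 8 ratios examined could pass a threshold and no adjusted value could be lower. The ratio of *Slc16a3* to *Slc16a1* changed by 5.35 on the log2 scale, that to *Slc16a7* by 4.57 and that to its chaperone gene *Bsg* by 4.52, each with an exact *p* of 0.333. Over the alternatives these 3 changes stayed between 4.04 and 6.02. Among the kinases, *Pdk1* gained on *Pdk2* by 1.37 and *Pdk3* gained on *Pdk2* by 1.54 (exact *p* = 0.333 each). *Pdk4* lost against *Pdk2*, with a change of −1.39 (exact *p* = 0.333). The groups did not overlap for any of these. In contrast, the ratio of *Pdk1* to *Pdk3* changed by −0.17 with overlapping groups (SD 0.14 in the untreated and 0.23 in the OGD arrays, exact *p* = 0.667).

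**Figure D4:**
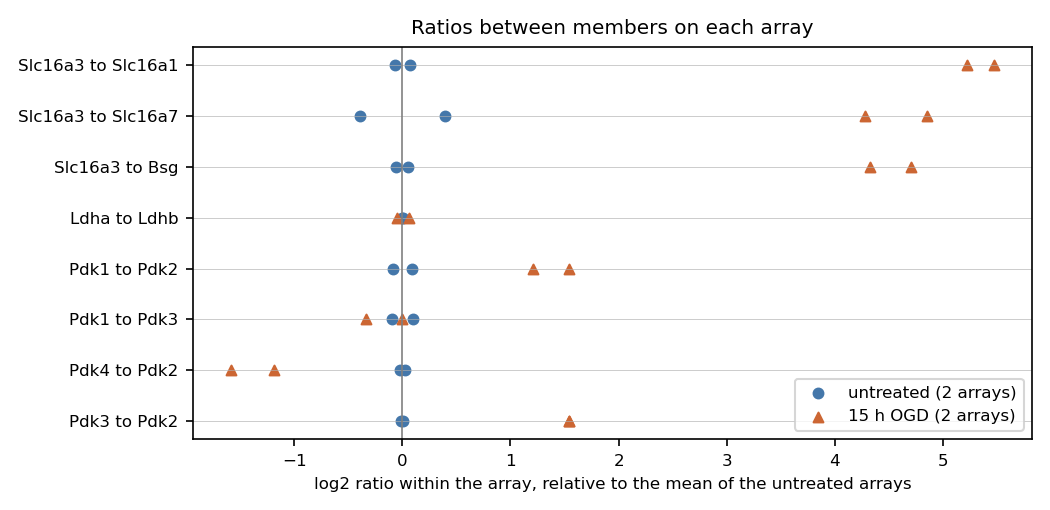
Log2 ratio of the processed signals of 2 members within an array (x axis, relative to the mean of the 2 untreated arrays) for the 8 pairs examined (y axis), with circles for untreated and triangles for OGD arrays. The ratios with *Slc16a3* shift by 4.52 to 5.35 and that of *Pdk4* to *Pdk2* by −1.39, while *Ldha* to *Ldhb* (brightest probes) and *Pdk1* to *Pdk3* overlap between the groups.

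Of the 36 other genes of lactate and pyruvate handling that were listed, 34 were tested, 16 were called higher, 6 lower and 12 not called, with a median change of 0.29 (all genes by brightest probe, 0.16, of which 37.1% were called higher and 27.8% lower). With spike-in scaling, where 1262 of all 28254 probes were called higher and 23153 lower, 1 of these genes was called higher and 28 lower, and without either untreated replicate 8 were higher and 4 lower, where the calls over all probes also fell, to 6408 and 4700 without replicate 1 and to 5520 and 4744 without replicate 2. Genes of the pyruvate dehydrogenase complex, the target of the kinases, moved in both directions on the 75th-percentile scale. *Pdha1*, the subunit that the kinases phosphorylate, changed by 0.41 (SE 0.09, adjusted *p* = 0.02) and *Dld*, the E3 subunit, by 0.51 (SE 0.09, adjusted *p* = 0.0101), while *Pdhb*, the other E1 chain, was not called (0.29, adjusted *p* = 0.0856). *Dlat*, the E2 subunit, changed by −0.98 (SE 0.08, adjusted *p* = 0.00175). *Pdhx*, the E3-binding protein, changed by −0.83 (SE 0.09, adjusted *p* = 0.00309) with its brightest probe, but its other probe changed by 2.10 (adjusted *p* = 0.00129), so the direction for this gene is not settled. Of the phosphatases that reverse the kinases, *Pdp1* was lower with all 3 probes (brightest −0.59, others −0.94 and −1.21), whereas *Pdp2* (0.91 and 1.59) and the regulatory subunit *Pdpr* (0.56 and 0.76) were higher on that scale. Both subunits of the mitochondrial pyruvate carrier were called higher, *Mpc1* by 0.83 and *Mpc2* by 0.38. *Bckdk*, the branched-chain ketoacid dehydrogenase kinase and nearest relative of the *Pdk* genes, was not called (−0.12, adjusted *p* = 0.254).

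Among the other 13 monocarboxylate and lactate carriers, 12 were tested, 5 were higher and 3 were lower, where 37.1% and 27.8% of all genes were called in those directions. *Slc16a10*, an aromatic amino acid transporter, changed by 3.23 (SE 0.13, adjusted *p* = 0.000793), from −7.45 and −7.70 to −4.43 and −4.25, but its signal was low on all arrays and its other 2 probes were not tested. *Slc16a14* (1.12) and *Slc16a6* (1.03), which transports ketone bodies, were higher as well, and *Slc16a9*, a carnitine exporter, was lower (−1.59). However, *Slc16a14* was dim (−6.45 and −6.25, then −5.41 and −5.05) and its other probe was not tested. The other probe of *Slc16a6* changed by 0.46 and that of *Slc16a9* by −1.08. *Slc16a13*, named after its values were seen, was lower with both probes, by unequal amounts (brightest −0.89, other −3.20, adjusted *p* = 0.00207 and 0.00263). The 6 other enzymes that make or use pyruvate included 3 that were higher, and by brightest probe only *Me1*, malic enzyme, exceeded 2-fold (1.06, SE 0.08, adjusted *p* = 0.00169). *Pkm*, pyruvate kinase, named after its values were seen, changed by 0.86 with its brightest and by 1.27 with its other probe (adjusted *p* = 0.00579 and 0.00115). Of the 3 further lactate dehydrogenase genes, *Ldhc* was among the 16 called higher. It was very dim (processed signal 4.1 and 6.9, then 6.8 and 9.6) and well above background on only 1 untreated array. It passed the filter through the OGD arrays alone, so no fold is given and its call is not read. *Ldhd* (0.11) was not called. *Ldhal6b* was not called either and was not well above background on either OGD array, so its level there is only a bound and no fold is given (adjusted *p* = 0.429). For the carrier chaperones beside *Bsg*, *Nptn* was higher (0.62, adjusted *p* = 0.00501) and *Emb* was not called (0.10, adjusted *p* = 0.398). *Hcar1*, the lactate receptor, was not well above background on any array and was not tested.

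**Figure D5:**
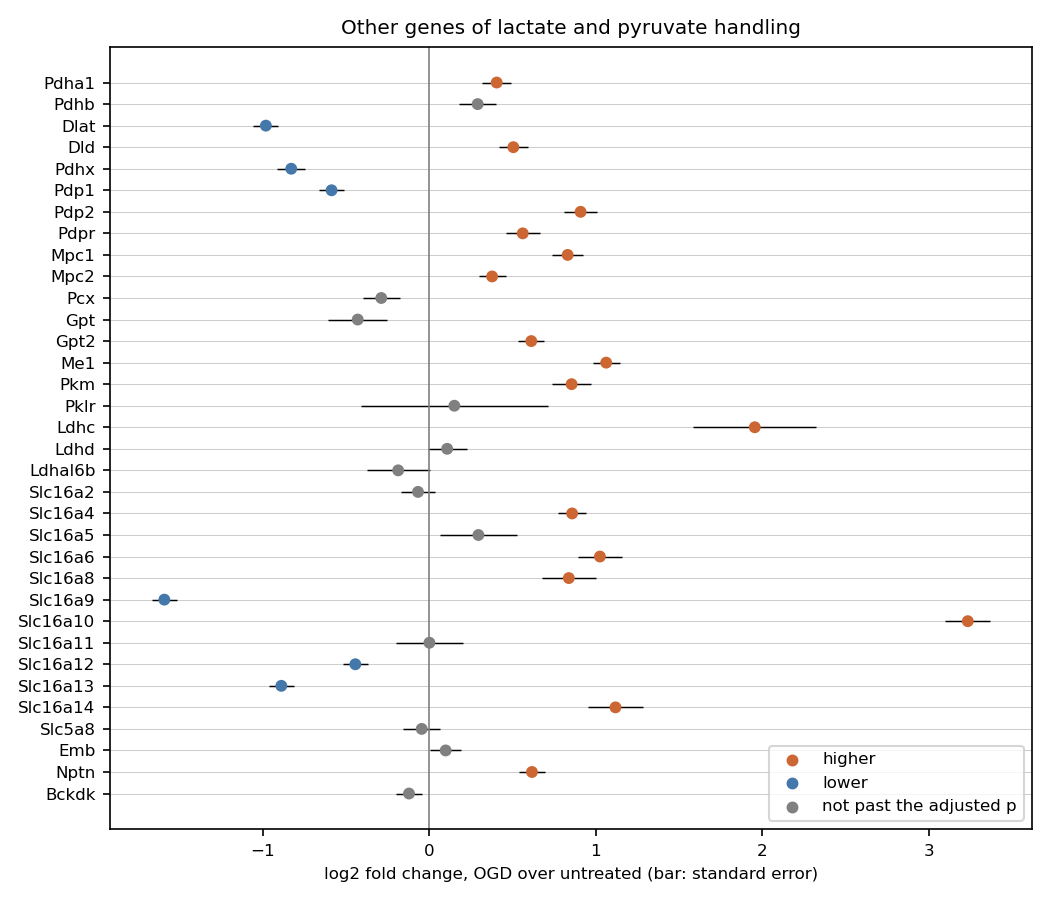
Change after OGD (log2, x axis, 75th-percentile scale, bars are standard errors) of the 34 tested genes of lactate and pyruvate handling beside the 10 (y axis), by brightest probe, with color for the call at an adjusted *p* of 0.05. *Slc16a10* is highest at 3.23 and *Slc16a9* lowest at −1.59, and with spike-in scaling 28 of these genes were called lower.

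MCT1, MCT2 and the lactate dehydrogenases are also made by other cells that these cultures could hold, and the markers of those cells were measured. The sums below are of unscaled processed signal, which fell on the OGD arrays as a whole (75th percentile 2135 and 2164, then 887 and 776), and the median changes beside them are on the 75th-percentile scale. Of the 8 oligodendrocyte markers, 8 were well above background on both untreated and 7 on both OGD arrays, 3 were higher and 3 lower, among them *Olig2* at −2.50 (adjusted *p* = 0.000729), and their summed signal went from 62163 and 63420 to 23260 and 19734 with a median change of 0.03. The 2 NG2 glia markers exceeded background on every array, 1 higher and 1 lower. Of the 7 microglial markers, 7 and 5 were well above background, 2 were higher (*Aif1* 1.03 and *Csf1r* 1.14), 1 was lower (*Tmem119*, −0.88) and the median change was 0.18. Their summed signal was low (3814 and 3207, then 1678 and 1292), and most of it was *Itgam* (3328 and 2726, then 1376 and 1015). Of the 5 neuronal markers, 5 and 4 were well above background, with 2 higher and 2 lower and a summed signal of 17718 and 17057, then 7487 and 6354 (median change −0.29). Endothelial *Cldn5* and *Tek* were not well above background on any array, and the other 3 of that list were, with 1 lower. All 4 fibroblast markers were well above background wherever they had a value (*Col1a1* had none on OGD replicate 1, an outlier spot), and none was called. The astrocyte markers summed to 323874 and 283745, then 186148 and 165321, with 5 of 8 higher, none lower and a median change of 0.71. The part of these shifts in the results for the 10 genes was not tested.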

How the data were processed

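Total RNA of 4 AEC samples (untreated, n = 2, and 15 h OGD, n = 2, grouped by their labels) was labeled with Cy3 and hybridized to single-color Agilent mouse arrays. The authors extracted the deposited intensity per spot (processed signal, background-subtracted within the array, not normalized between arrays) with Agilent Feature Extraction (11.5.1.1 per the submitters' processing notes). Their series table held the same values (largest difference 0). From the deposited intensity, log2 was taken, control and outlier spots (119 to 132 per array, none of the 10 genes) were left out, spots of a probe were averaged, and the 75th percentile over non-control probes was subtracted. The filter kept probes marked well above background (at least 0.5 of the spots) on the 2 arrays of either group. They were fitted with limma 3.58.1 (R 4.3.3, lmFit and eBayes, residual degrees of freedom 2, prior 1.85), with Benjamini–Hochberg adjustment over all 28254 probes. The brightest probe stood for a gene.

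Genes and lists were chosen with earlier results of these data known. All 10 genes are named with every probe, and from the lists of other lactate and pyruvate genes every gene called and changed at least 2-fold by its brightest probe and every gene of a list of up to 5 (exceptions are marked). Marker lists are given by counts. Genes of like pattern were not sought, since 4 arrays in 2 groups give only the size of the change. Probe positions are on mm9 as deposited, 17 of the 19 probes matched RefSeq to the same symbol by accession, and promoter windows are RefSeq's on GRCm38.p6. Ratios within arrays were tested by exact permutation (6 arrangements). The alternatives were the methods' *t*-test, other priors, background corrections, scalings and filters, a replicate block, the series table and each array left out. The number of arrays limits the precision. Steps were tested on simulated data. Python 3.11.15, pandas 2.3.3, numpy 2.4.6 and matplotlib 3.10.9 were used.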

Additional observations from a re-analysis of the deposited data

How the results depend on the processing

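Of the 18 tested probes of the 10 genes, 6 kept direction and call under all 16 alternatives (both of *Slc16a3*, the 2 upstream ones of *Ldha*, *Bsg* and *Pdk4*). How many of all probes did so was not counted. Among the 16, the series table held the same values as the main setting and could not differ. With spike-in scaling the sign turned for *Slc16a1* (−0.33), *Pdk1* (−0.41), *Pdk3* (−0.24), *Ldhb* (−0.86), the 3′ probe of *Ldha* (−0.85) and *Slc16a7* A_55_P1990693 (−0.22), A_55_P2173358 (−0.87) and A_55_P2211748 (−1.02). It turned after quantile normalization for *Ldhb* (−0.42) and the 3′ probe of *Ldha* (−0.41), and after normexp correction for *Slc16a7* A_55_P2394490 (0.0025) and the ratio of *Ldha* to *Ldhb* (−0.0147), which ranged from −0.0476 to 0.0653 with single arrays left out. Scaling to the 75th percentile of detected probes left *Ldhb* (0.27) and the 3′ probe of *Ldha* (0.28) without a call. The cause was not tested.

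Against 11 probes higher and 4 lower among the 10 genes and 16 and 6 among the other genes, spike-in scaling gave 5, 10, 1 and 28. Normexp correction gave 2 lower probes, quantile normalization 10 higher genes. A fold over 2 beside limma's adjusted *p* left 7, 2, 5 and 1. The share of all probes past that limit was not counted, so these counts cannot be read against the array. A fold over 10 left 2, 0, 0 and 0, where 0.811% of all probes were called higher. Leaving out single arrays gave 9 to 13, 2 to 4, 8 to 17 and 4 to 7, the lowest counts without an untreated replicate (all probes then 6408 and 4700, or 5520 and 4744), where the lone array was assumed to vary like the other group. The labels do not say that the replicate numbers pair the samples, and the values gave no sign of it (correlation of deviations −0.06). With the replicate block 10 probes were higher and 4 lower, with *Ldhb* (0.43, adjusted *p* = 0.0557) no longer called. Over all probes it called 9919 higher and 7288 lower, against 10708 and 7646, the methods' *t*-test called 7358 and 5322, normexp correction 17755 and 5366, and spike-in scaling 1262 and 23153. Of the 5 tested probes of *Slc16a7*, A_55_P2211748 was well above background on only 1 OGD array.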
